A study of Homo sapiens with 12 samples.

Results

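The 10 genes described here encode the kinases that drive cells into and through mitosis and the proteins of the checkpoint that holds chromosomes back until all are attached: AURKA, AURKB, PLK1, PLK4, CDK1, CCNB1, BUB1, BUB1B, TTK and CDC20. They were chosen by name for these functions, with earlier results of these data known. AURKA and PLK1 were chosen also because they have been proposed as SMARCB1 targets in rhabdoid tumours. All 10 were found among the 57820 gene identifiers of the tables, and all 10 were among the 15750 genes that passed the filter on low counts and were tested. Their changes were modest, but several exceeded the spread between replicates by a wide margin. With induced SMARCB1, 6 of the 10 rose, led by PLK1, BUB1 and CDC20, in a comparison where 65.0% of all genes tested were called, so the count is near the background. With the BRD9 degrader, 5 of the 10 rose in cells without SMARCB1, led by PLK4, beside 15.9% of all genes called, and leaving out 1 of 4 single libraries took that 5 down to 2 or 3. In those 4 fits 11.1% to 12.8% of all genes were called. In cells with SMARCB1, PLK4 alone of the 10 passed the test, beside 1.93% of all genes. These directions are relative to the bulk of genes. When libraries were scaled to spike-in RNAs, the rises with SMARCB1 alone and with the degrader in cells without SMARCB1 stayed called. PLK4 in cells with SMARCB1 kept its sign but not its call. With SMARCB1 under the degrader several directions turned, as given with each comparison. Spike-ins are synthetic transcripts added from outside, and how they were added is not given in the sources used here.

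RNA was sequenced from G401, a human malignant rhabdoid tumour line with the genotype SMARCB1(-/-). SMARCB1 is a core subunit of some forms of the SWI/SNF chromatin remodelling complex, and its loss defines these tumours. BRD9 is a subunit of another form, the non-canonical one. All 4 groups were given doxycycline, which induced GFP as a control protein in 2 groups and SMARCB1 in the other 2, and each kind of cell then spent 24 hours in the solvent DMSO or in dBRD9-A, a degrader molecule that targets BRD9 for destruction. Each group had 3 replicates. All come from 1 line, and the labels do not say whether the replicates were separate cultures, so p-values measure the spread between these samples, which may be technical. How long SMARCB1 had been induced is not given in the sources used here.

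Entry into mitosis is driven by CDK1, a kinase that is active when bound to cyclin B1, the product of CCNB1. Aurora A and PLK1 mature the centrosomes and spindle poles and help to switch on CDK1, while PLK4 starts the duplication of centrioles. Aurora B, in the chromosomal passenger complex, corrects wrong attachments of chromosomes to the spindle. TTK (also called MPS1), BUB1 and BUBR1 (the product of BUB1B) act at unattached kinetochores to build the spindle assembly checkpoint, whose target is CDC20, the activator of the anaphase-promoting complex that marks cyclin B1 for destruction. The transcripts of most of these genes build up in G2 and mitosis, under the MuvB, B-MYB and FOXM1 factors, so in bulk RNA a larger share of cells in these phases and more RNA per such cell cannot be told apart.

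The libraries held 34.9743 to 58.5361 megacounts assigned to genes (1 megacount is 1e6 counts). One library stood apart from its group, SMARCB1 dBRD9-A replicate 2. The chi-square per degree of freedom over genes was 10.09 and 23.76 between it and the other replicates, against 2.888 to 7.452 for every other pair within a group. Without it 6, 5, 1 and 6 of the 10 genes were called with SMARCB1 in DMSO, with dBRD9-A in GFP cells, with dBRD9-A in SMARCB1 cells and with SMARCB1 under dBRD9-A, against 6, 5, 1 and 7 with it, the gene lost being BUB1B. The interaction called 0 of the 10 with and without it, while over all genes its calls went from 598 to 862. As a check of the labels, SMARCB1 had 0 to 2 counts in each GFP library and 1880 ± 59.4 CPM (counts per megacount on scaled library sizes, SD, n = 3) in untreated and 1310 ± 27 CPM (SD, n = 3) in treated SMARCB1 cells. The SMARCB1 transcript thus fell with dBRD9-A by 0.52 on the log2 scale (SE 0.03, edgeR adjusted p 4.95e-08). Its part in the comparisons within SMARCB1 cells was not tested. The degrader acts on the BRD9 protein, so BRD9 mRNA, at 38.3 to 47.5 CPM as group means, does not check that treatment. Of the markers of the line, VIM, KRT8 and KRT18 stood at 1260 to 2670 CPM in every library. Of the markers of other cell types, PTPRC and CD3E had 0 counts, CDH5, EPCAM and NPHS1 had at most 44 counts in any library, while CD68 stood at 57.4 to 199 CPM, COL1A1 at 63.7 to 267 CPM and COL1A2 at 626 to 864 CPM. The 8 matched markers of other cell types summed to 1240 to 1310 CPM in untreated and 995 to 1000 CPM in treated GFP libraries, and to 956 to 973 CPM in untreated and 791 to 852 CPM in treated SMARCB1 libraries. The part of these genes in the results was not tested.

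The 10 genes were measured with high counts. A single gene had 1692 to 30888 counts in a library, and the coefficient of variation over the replicates of a group ran from 0.26% to 4.62%. The sum of the 10 genes was 1710 ± 12 CPM in untreated and 1780 ± 32.9 CPM in treated GFP cells, and 1930 ± 19.1 CPM in untreated and 1930 ± 20.3 CPM in treated SMARCB1 cells (SD, n = 3). CCNB1, at 517 to 540 CPM as group means, made up the largest part of that sum.

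To compare levels between the genes, CPM was divided by the length of the longest protein-coding transcript of each gene in GENCODE release 29 (CPM per kilobase). In GFP cells in DMSO the order was CCNB1 (238 CPM per kilobase), CDC20 (143), CDK1 (89.4), AURKB (70.9), AURKA (66.8), BUB1 (45.0), PLK1 (42.9), BUB1B (38.0), TTK (23.8) and PLK4 (10.9). AURKB and AURKA were the neighbours in this order whose replicates overlapped, with 67.5 to 73.6 and 66.0 to 67.5 CPM per kilobase. The other neighbours did not overlap. With SMARCB1 in DMSO, PLK1 reached 57.3 to 61.0 CPM per kilobase and BUB1 58.2 to 59.6, so that these 2 genes no longer differed beyond their spread. AURKA and AURKB, at 76.1 ± 0.904 and 74.7 ± 1.67 CPM per kilobase (SD, n = 3), overlapped there as well. The kinase that starts centriole duplication, PLK4, was the lowest of the 10 per length in each of the 4 groups, and cyclin B1 was the highest.

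**Figure D1:**
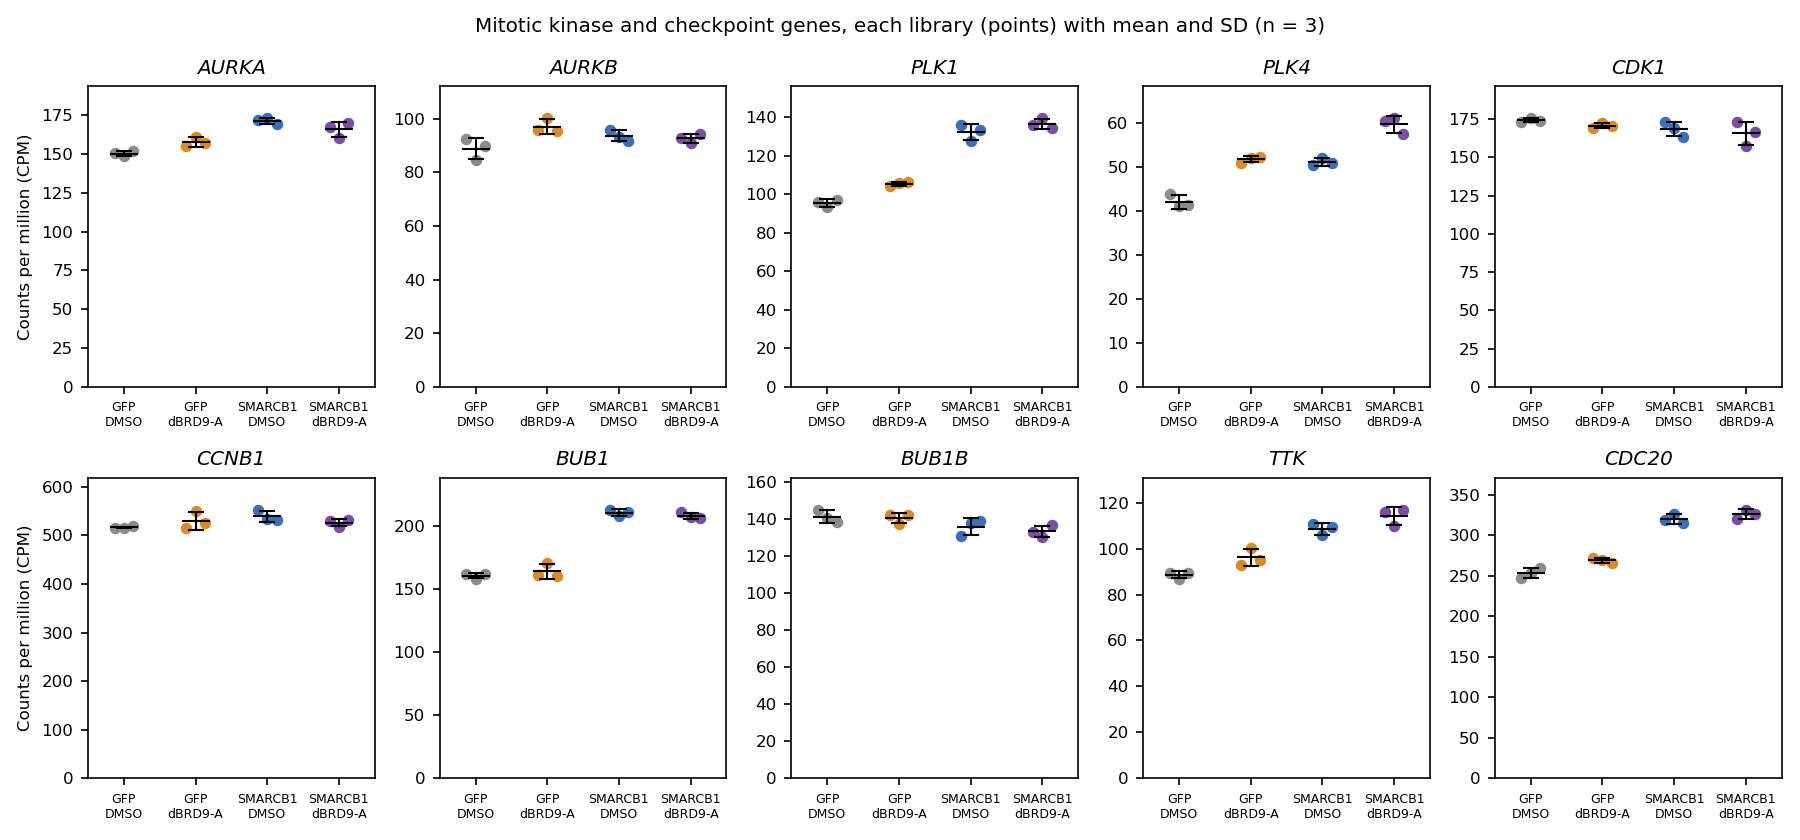
Level of each of the 10 genes in CPM (y axes, each starting at 0) in the 4 groups (x axes), where points are single libraries and black lines the mean and SD over 3 replicates. PLK1, BUB1 and CDC20 step up between GFP and SMARCB1 cells, and CDK1 and BUB1B stay near one level. PLK4 steps up with either SMARCB1 or dBRD9-A and is highest with both (59.8 CPM against 42.1 CPM in GFP cells in DMSO). These levels are scaled to all genes. Under spike-in scaling the log2 fold change of PLK4 for SMARCB1 against GFP under dBRD9-A was -0.12 (edgeR adjusted p 0.115).

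The promoters of these genes are known for 2 short elements, the CHR (cell cycle genes homology region), which the MuvB complex contacts, and the CCAAT box, which NF-Y contacts. RefSeq promoter windows (GRCh38.p14, 250 bases before to 50 bases after a transcription start) matched 8 of the 10 genes, all but AURKA and TTK, with 12 windows because some genes have several starts. The 150 bases before the start are shown for 3 genes that rose with SMARCB1 (PLK1, CDC20, BUB1), for PLK4, which answered both treatments, and for 3 genes that did not pass the test with SMARCB1 in DMSO (CCNB1, BUB1B, CDK1), so that the groups can be compared by eye. Each is written 5′ to 3′ on the strand of its gene, and capitals mark matches of TTTGAA or TTTAAA (the CHR searched here) and of CCAAT, on either strand, so that ATTGG is CCAAT read on the other strand. PLK4 and CDK1 are shown for their most upstream start.
PLK1 (chr16:23678739-23678888, plus strand): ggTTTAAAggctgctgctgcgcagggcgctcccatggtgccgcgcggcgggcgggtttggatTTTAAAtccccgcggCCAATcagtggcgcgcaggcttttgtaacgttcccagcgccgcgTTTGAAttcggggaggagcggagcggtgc
CDC20 (chr1:43358831-43358980, plus strand): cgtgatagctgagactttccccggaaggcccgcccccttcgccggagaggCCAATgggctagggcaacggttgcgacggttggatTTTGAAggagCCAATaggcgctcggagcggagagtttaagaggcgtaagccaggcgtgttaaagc
BUB1 (chr2:110678064-110678213, minus strand): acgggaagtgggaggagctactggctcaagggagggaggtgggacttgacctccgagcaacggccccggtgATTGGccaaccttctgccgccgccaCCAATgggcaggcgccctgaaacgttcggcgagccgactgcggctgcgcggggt
PLK4 (chr4:127880743-127880892, plus strand): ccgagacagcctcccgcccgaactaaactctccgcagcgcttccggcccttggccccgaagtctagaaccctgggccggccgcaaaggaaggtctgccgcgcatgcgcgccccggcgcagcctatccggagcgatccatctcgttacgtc
CCNB1 (chr5:69167000-69167149, plus strand): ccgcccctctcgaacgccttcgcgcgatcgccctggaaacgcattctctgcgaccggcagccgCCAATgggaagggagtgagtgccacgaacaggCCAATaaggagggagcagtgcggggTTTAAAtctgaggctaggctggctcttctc
BUB1B (chr15:40160919-40161068, plus strand): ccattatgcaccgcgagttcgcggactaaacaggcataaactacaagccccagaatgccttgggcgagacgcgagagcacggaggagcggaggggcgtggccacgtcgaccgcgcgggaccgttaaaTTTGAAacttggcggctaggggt
CDK1 (chr10:60778181-60778330, plus strand): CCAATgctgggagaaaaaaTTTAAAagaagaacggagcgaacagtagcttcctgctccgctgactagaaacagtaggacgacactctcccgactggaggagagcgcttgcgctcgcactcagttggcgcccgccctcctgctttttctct

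A CHR match lay in the window of 6 of the 8 matched genes, against 27.9% of the 27305 genes in the table, and a CCAAT match in 7 of the 8, against 39.7%. Both lay in the windows of 4 of the 8 (PLK1, CDC20, CCNB1 and CDK1), against 11.2% of genes. Within the stretch from 100 bases before the start to the end of the window, both were again found in 4 of the 8, against 3.44% of genes. TTTAAA reads the same on both strands and was counted once.

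In the PLK1 window TTTGAA began 29 bases before the start and CCAAT 73 bases before it. The same pair lay 65 bases (TTTGAA) and 100 and 55 bases (CCAAT) before the start of CDC20. In CCNB1, TTTAAA began 30 bases before the start and CCAAT 87 and 55 bases before it. Windows with both motifs thus belonged to genes that rose with SMARCB1 in DMSO (PLK1 and CDC20) and to genes that did not pass the test there (CCNB1 and CDK1). BUB1, which rose, had CCAAT on both strands and no CHR match, and BUB1B, which was not called, had TTTGAA 23 bases before the start and no CCAAT. At the second start of CDK1, TTTGAA began 69 and 13 bases before the start. The stretch shown for PLK4 holds no match. Its match to TTTGAA lay 38 bases after that start, on the other strand, and CCAAT lay 86 bases before its most downstream start. A match is a run of letters and not a measured site, and AURKB, the remaining gene, had CCAAT alone.

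The effect of restoring SMARCB1 was assessed against GFP in DMSO. The kinase genes PLK1, PLK4, AURKA, BUB1 and TTK and the checkpoint's target CDC20 rose, by 14.0% for AURKA to 38.6% for PLK1, while AURKB, CCNB1, BUB1B and CDK1 did not pass the test. AURKA and PLK1, the proposed SMARCB1 targets, were both higher with SMARCB1, at percentiles 67.9 and 83.0 of all genes' log2 fold changes. The direction proposed for these targets is not given in the sources used here, so the rises were not set against it. In this comparison 65.0% of all genes tested were called (33.5% higher and 31.6% lower), so 6 of 10 called is near the background share. Called changes of at least 1 in absolute log2, found for 14.6% of all genes, included 0 of the 10. The members' direction was one-sided, with 6 higher and 0 lower. Their median log2 fold change was 0.24, beside 0.00 over all genes. Spike-in scaling, which put the all-gene median of log2 fold changes at 0.165 in this comparison, called 8 of the 10 higher and 0 lower, with CDK1 and BUB1B moving from -0.05 and -0.06 to 0.12 and 0.11. That scaling called 59.8% of all genes, 72.6% of those higher.

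PLK1, which acts at centrosomes and kinetochores and promotes CDK1 activation, had 95.88, 93.45 and 97.18 CPM in the GFP libraries in DMSO and 135.9, 127.6 and 133.6 CPM in the SMARCB1 libraries in DMSO. The groups lay far apart and did not overlap. The log2 fold change was 0.47 (SE 0.03, edgeR adjusted p 1.29e-10), a rise of 38.6% with a 95% interval of 32.8% to 44.6%. That was the largest change among the 10 genes, and it ranked at the 83rd percentile of all genes' log2 fold changes. PLK1 overlaps ERN2 on the opposite strand in GENCODE 29, but ERN2 had 10 to 44 counts per library.

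The centriole kinase PLK4 had 43.82, 41.02 and 41.31 CPM with GFP and 50.52, 52.15 and 50.82 CPM with SMARCB1 in DMSO. Every SMARCB1 library was above every GFP library. Its log2 fold change was 0.28 (SE 0.04, edgeR adjusted p 1.71e-06), a rise of 21.6% (95% interval 15.4% to 28.0%).

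AURKA, the spindle pole kinase, had 150.3, 148.5 and 151.8 CPM with GFP and 171.6, 173.0 and 169.0 CPM with SMARCB1 in DMSO. The replicates were within a few CPM of each other and the groups did not overlap. AURKA rose by 14.0% (95% interval 9.41% to 18.7%), a log2 fold change of 0.19 (SE 0.03, edgeR adjusted p 1.11e-05). Its sister kinase AURKB, at 92.29, 84.63 and 89.73 CPM with GFP and 95.97, 93.36 and 91.83 CPM with SMARCB1, overlapped between the groups. The log2 fold change of AURKB was 0.07, with an adjusted p of 0.0638 and a 95% interval of 0.003 to 0.15. Without GFP DMSO replicate 1, AURKB passed the threshold (0.10, adjusted p 0.0255). Whether AURKA and AURKB differed in their change was not tested.

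Among the checkpoint genes, BUB1, a kinase that marks centromeric chromatin and docks other checkpoint proteins, had 161.9, 158.4 and 162.2 CPM with GFP and 213.2, 208.0 and 211.5 CPM with SMARCB1 in DMSO. TTK, the kinase that starts checkpoint signalling, had 89.56, 86.88 and 89.28 CPM with GFP and 110.6, 105.7 and 109.4 CPM with SMARCB1. CDC20 had 246.9, 253.2 and 259.8 CPM with GFP and 318.6, 326.5 and 315.3 CPM with SMARCB1. For these 3 genes every SMARCB1 library lay above every GFP library. The log2 fold changes were 0.39 for BUB1 (SE 0.03, edgeR adjusted p 1.05e-09), 0.34 for CDC20 (SE 0.03, adjusted p 5.29e-09) and 0.29 for TTK (SE 0.03, adjusted p 4.98e-07). BUB1B, the relative of BUB1 that binds CDC20 in the inhibitory complex, went the other way in its mean, with 145.2, 140.6 and 138.3 CPM with GFP and 130.8, 138.1 and 139.3 CPM with SMARCB1. Its groups overlapped and its log2 fold change of -0.06 was not past the threshold (95% interval -0.12 to 0.01, edgeR adjusted p 0.133). CDC20 has a processed pseudogene, CDC20P1, with 42 to 90 counts per library, few beside the counts of CDC20 itself.

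Neither gene of the pair that triggers mitosis was called. CCNB1 had 516.0, 516.1 and 518.4 CPM with GFP and 552.8, 534.6 and 531.4 CPM with SMARCB1 in DMSO, a log2 fold change of 0.06 (95% interval 0.003 to 0.12, edgeR adjusted p 0.0614). The CCNB1 groups did not overlap, yet the change missed the threshold, which it passed in the DESeq2 Wald test (adjusted p 0.04) and without GFP dBRD9-A replicate 2 (adjusted p 0.0433). CDK1 had 173.2, 175.5 and 173.6 CPM with GFP and 173.1, 168.8 and 163.4 CPM with SMARCB1, a log2 fold change of -0.05 (95% interval -0.12 to 0.02, edgeR adjusted p 0.201). A change of CDK1 of more than 7.72% downward or 1.36% upward lies outside that interval, which holds for libraries scaled to all genes. Spike-in scaling put the log2 fold change of CDK1 at 0.12 (edgeR adjusted p 0.124).

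The comparison of SMARCB1 with GFP was repeated under dBRD9-A. Called higher were PLK1 by 29.4%, BUB1 by 26.8%, CDC20 by 21.1%, TTK by 18.8%, PLK4 by 15.4% and AURKA by 5.14%, 6 genes in all, and BUB1B was called lower, by 0.08 on the log2 scale. The share of all genes called was 63.3% (33.0% higher and 30.4% lower), so the count of 7 of 10 again lies near the background, and 0 of the 10 were among the 14.6% called with a change of at least 1 in absolute log2. Under spike-in scaling, which put the median of all genes at -0.319 here, none of the 6 was called higher: PLK1 and BUB1 stood at 0.04 and 0.02 on the log2 scale, and CDC20, TTK and PLK4 turned to -0.05, -0.08 and -0.12. AURKA turned to -0.25 and was called lower, together with AURKB (-0.39), CCNB1 (-0.34), CDK1 (-0.37) and BUB1B (-0.40). Over all genes 71.0% were called with spike-ins, and only 19.1% of those were higher. This comparison shares no library with that in DMSO.

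With dBRD9-A, PLK1 had 104.4, 106.1 and 106.3 CPM in GFP cells and 135.9, 139.6 and 134.5 CPM in SMARCB1 cells. BUB1 had 161.1, 171.0 and 160.8 CPM in GFP cells and 211.3, 207.1 and 206.9 CPM in SMARCB1 cells. The gap between the groups was many times the spread for both, with log2 fold changes of 0.37 (SE 0.03, edgeR adjusted p 3.98e-09) and 0.34 (SE 0.03, adjusted p 7.4e-09). CDC20 had 272.4, 269.5 and 265.8 CPM in GFP cells against 319.9, 331.7 and 326.8 CPM in SMARCB1 cells, and TTK had 92.97, 100.3 and 95.12 CPM against 115.9, 109.9 and 116.9 CPM. Neither overlapped, with log2 fold changes of 0.28 (SE 0.03, edgeR adjusted p 8.47e-08) for CDC20 and 0.25 (SE 0.03, adjusted p 4.43e-06) for TTK.

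The calls of AURKA and BUB1B under dBRD9-A were close to the threshold. AURKA had 154.9, 160.9 and 157.2 CPM in GFP cells and 167.4, 160.1 and 169.9 CPM in SMARCB1 cells, so that 1 SMARCB1 library lay within the GFP range. Its log2 fold change was 0.07 (SE 0.03, edgeR adjusted p 0.0321), which DESeq2's Wald test put at 0.0544, no longer called. AURKA was no longer called in 6 of 12 fits with 1 library removed, namely on removal of replicate 1 (adjusted p 0.052) or 3 (0.0722) of GFP DMSO, replicate 1 (0.149) or 3 (0.0824) of GFP dBRD9-A, or replicate 1 (0.108) or 3 (0.205) of SMARCB1 dBRD9-A. BUB1B had 142.1, 137.5 and 142.5 CPM in GFP cells and 133.1, 130.5 and 136.8 CPM in SMARCB1 cells, with no overlap. The log2 fold change of BUB1B was -0.08 (SE 0.03, edgeR adjusted p 0.0427), and this call was absent without SMARCB1 DMSO replicate 2 (0.0503), GFP dBRD9-A replicate 1 (0.0931) or 3 (0.105), or SMARCB1 dBRD9-A replicate 1 (0.0748) or 2 (0.113).

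**Figure D2:**
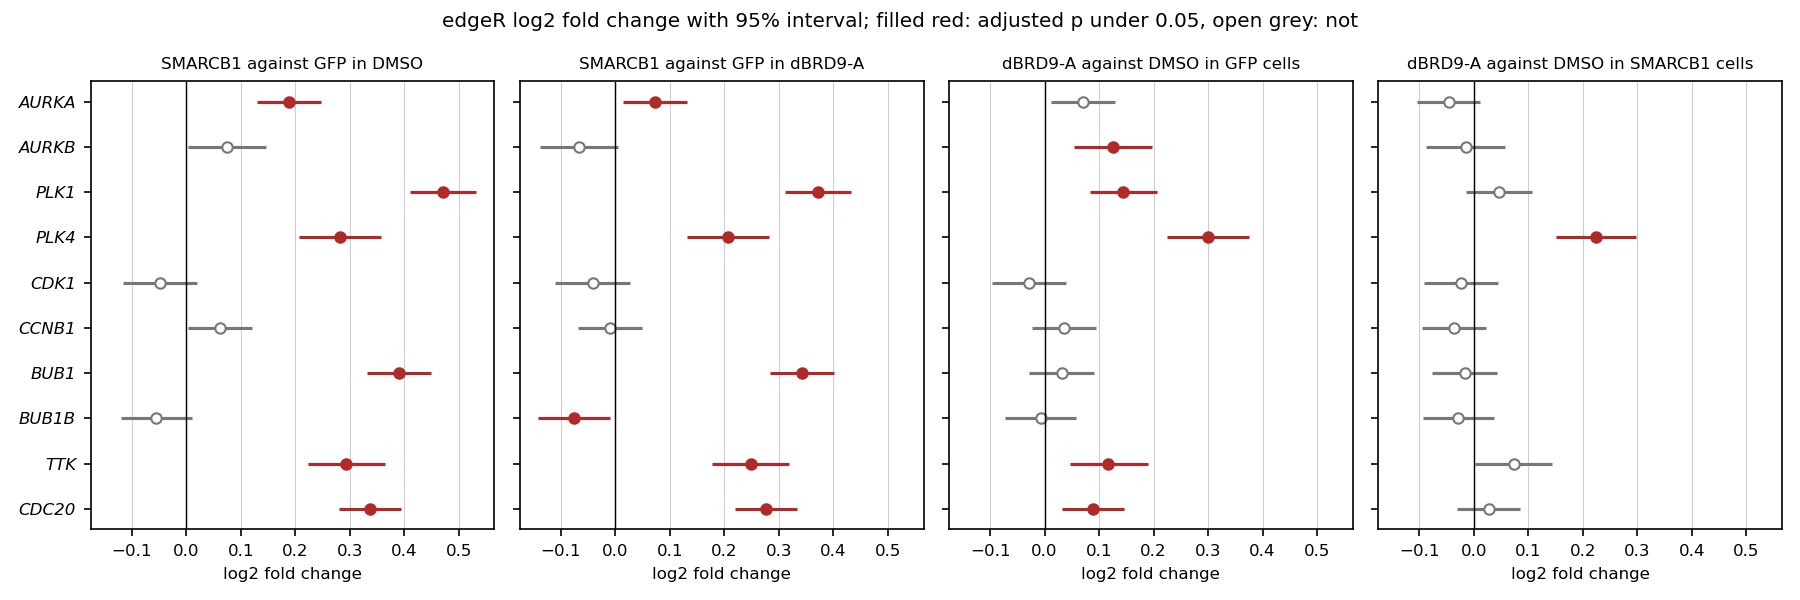
Log2 fold change (x axes) of the 10 genes (rows) in the 4 comparisons (panels), as points with 95% intervals from edgeR, filled red where the adjusted p was under 0.05. SMARCB1 gives its largest values for PLK1 (0.47 and 0.37) and BUB1 (0.39 and 0.34), and PLK4 is the gene that is filled in all 4 panels.

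The effect of the BRD9 degrader without SMARCB1 was assessed in GFP cells. Here PLK4, PLK1, AURKB, TTK and CDC20 rose, by 23.1%, 10.5%, 9.14%, 8.48% and 6.30%, and the other 5 genes did not pass the test. The background share was 15.9% of all genes (7.43% higher and 8.47% lower), against 5 of 10 members, all of them higher. Called changes of at least 1 in absolute log2 were found for 0.908% of all genes and for 0 of the 10. The members' median log2 fold change was 0.08, beside 0.00 over all genes. Spike-in scaling put the median of all genes at 0.358 and called all 10 higher, with CDK1 and BUB1B moving from -0.03 and -0.01 to 0.33 and 0.35. This comparison shares its control libraries with that of SMARCB1 against GFP in DMSO, so the values of the 2 comparisons are not independent of each other.

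PLK4 had 43.82, 41.02 and 41.31 CPM in DMSO and 51.0, 52.1 and 52.36 CPM with dBRD9-A. The treated libraries lay together, above all of the untreated ones. PLK4 rose by 0.30 on the log2 scale (SE 0.04, edgeR adjusted p 1.18e-05), with a 95% interval of 16.8% to 29.7% for the rise. This value lay at the 92.5th percentile of all genes' log2 fold changes, and it held its call in each of the 12 fits with 1 library removed. PLK1 went from 95.88, 93.45 and 97.18 CPM to 104.4, 106.1 and 106.3 CPM, with no overlap. Its log2 fold change was 0.14 (SE 0.03, edgeR adjusted p 0.00237), and it too was called in each of those 12 fits.

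The remaining 3 calls were smaller and did not hold in every fit with 1 library removed. AURKB went from 92.29, 84.63 and 89.73 CPM to 95.71, 100.2 and 95.4 CPM, a log2 fold change of 0.13 (SE 0.03, edgeR adjusted p 0.0171). The call ended when replicate 2 of GFP DMSO (adjusted p 0.0833) or replicate 2 of GFP dBRD9-A (0.0884) was removed. TTK went from 89.56, 86.88 and 89.28 CPM to 92.97, 100.3 and 95.12 CPM, a log2 fold change of 0.12 (SE 0.03, edgeR adjusted p 0.0245). Its adjusted p went above the threshold on removal of GFP DMSO replicate 1 (to 0.0548), 2 (0.0872) or 3 (0.053), or of GFP dBRD9-A replicate 2 (0.13) or 3 (0.0503). CDC20 went from 246.9, 253.2 and 259.8 CPM to 272.4, 269.5 and 265.8 CPM, a log2 fold change of 0.09 (SE 0.03, edgeR adjusted p 0.0358). The same happened to CDC20 on removal of GFP DMSO replicate 1 (adjusted p 0.17) or 2 (0.0797), or of GFP dBRD9-A replicate 1 (0.124), 2 (0.0842) or 3 (0.0574). The groups did not overlap for any of these 3 genes. The count of 5 members became 3 without GFP DMSO replicate 1 or GFP dBRD9-A replicate 3, and 2 without GFP DMSO replicate 2 or GFP dBRD9-A replicate 2. The share of all genes called fell as well, from 15.9% to 11.1%, 11.4%, 12.8% and 11.7% in the same order.

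AURKA was 150.3, 148.5 and 151.8 CPM in DMSO and 154.9, 160.9 and 157.2 CPM with dBRD9-A, without overlap, and its log2 fold change of 0.07 missed the threshold (95% interval 0.01 to 0.13, edgeR adjusted p 0.106). The values of BUB1, CCNB1 and BUB1B overlapped between the groups. Their log2 fold changes were 0.03 for BUB1 (95% interval -0.03 to 0.09), 0.04 for CCNB1 (-0.02 to 0.10) and -0.01 for BUB1B (-0.07 to 0.06). CDK1 was 173.2, 175.5 and 173.6 CPM in DMSO and 168.9, 172.5 and 170.4 CPM with dBRD9-A, a log2 fold change of -0.03 (95% interval -0.10 to 0.04, edgeR adjusted p 0.612). BUB1 thus rose with SMARCB1 but was not called with dBRD9-A, and AURKB the reverse. Whether the effects of SMARCB1 and dBRD9-A on these genes differ was not tested.

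The effect of dBRD9-A was then assessed in the presence of SMARCB1. PLK4 rose and the other 9 genes did not pass the test, against a background of 1.93% of all genes (0.679% higher and 1.25% lower). Called changes of that size (1 in absolute log2) made up 0.146% of all genes and 0 of the 10. PLK4 had 50.52, 52.15 and 50.82 CPM in DMSO and 60.57, 61.1 and 57.58 CPM with dBRD9-A, and the groups lay apart. The log2 fold change was 0.22 (SE 0.04, edgeR adjusted p 0.00151), a rise of 16.8% (95% interval 11.0% to 23.0%). Among all 15750 genes it ranked 70th by adjusted p, and it kept its call in each of the 12 fits with 1 library removed (0.21, adjusted p 0.00572, without SMARCB1 dBRD9-A replicate 2). Under spike-in scaling, which put the median of all genes at -0.135, PLK4 stood at 0.09 and was not called (adjusted p 0.345), and PLK1, TTK and CDC20 turned from 0.05, 0.07 and 0.03 to -0.09, -0.06 and -0.11. That scaling called 5.54% of all genes, 4.47% of those higher.

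PLK1, at 135.9, 127.6 and 133.6 CPM in DMSO and 135.9, 139.6 and 134.5 CPM with dBRD9-A, overlapped between the groups. Its log2 fold change was 0.05 (95% interval -0.01 to 0.11, edgeR adjusted p 0.561). TTK came nearest to a call after PLK4, with 110.6, 105.7 and 109.4 CPM in DMSO and 115.9, 109.9 and 116.9 CPM with dBRD9-A and a log2 fold change of 0.07 (95% interval 0.002 to 0.14, adjusted p 0.369). For AURKA, AURKB, BUB1, BUB1B, CDC20, CCNB1 and CDK1 the values overlapped as well, and the log2 fold changes lay between -0.05 and 0.03.

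Whether SMARCB1 altered the response to dBRD9-A was tested by the interaction, the change in SMARCB1 cells minus that in GFP cells. None of the 10 genes was called by edgeR or by the DESeq2 Wald test, against a background of 3.80% of all genes called by edgeR (2.15% higher and 1.65% lower, and 0.267% with an absolute value of at least 1). An unadjusted edgeR p under 0.05, a looser threshold than that of the background share, was found for 3 of the 10. These were AURKA (-0.12, SE 0.04, edgeR adjusted p 0.133), AURKB (-0.14, SE 0.05, adjusted p 0.135) and PLK1 (-0.10, SE 0.04, adjusted p 0.239). By adjusted p they ranked 1079th, 1089th and 1811th of the 15750 genes, so many other genes passed that looser threshold too. For AURKA and AURKB every difference between a treated and an untreated SMARCB1 library lay below every such difference in GFP cells. The share of all genes with such a separation was not counted. The estimate was negative for 9 of the 10 genes, and for CDK1 it was 0.01. All 10 share the same libraries, so these signs are not independent. For PLK4 the interaction was -0.08 (95% interval -0.18 to 0.03, adjusted p 0.506), so its rises of 23.1% and 16.8% in the 2 kinds of cell were not shown to differ. Spike-in scaling, with the median of all genes at -0.491, called all 10 lower, at -0.64 to -0.49. It called 71.6% of all genes, only 0.586% of those higher, so the members again moved with the bulk of genes.

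**Figure D3:**
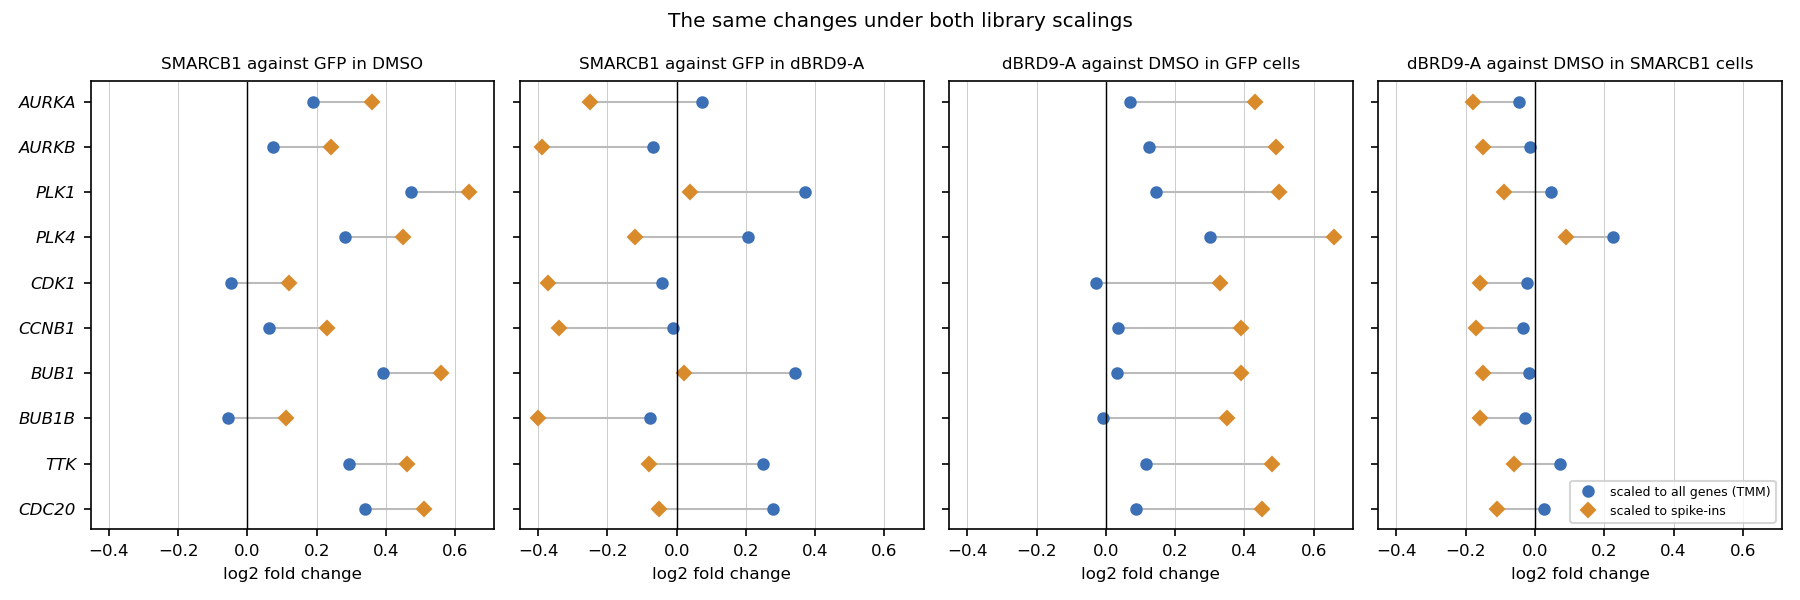
Log2 fold changes (x axes) of the 10 genes (rows) in the 4 comparisons (panels) with libraries scaled to all genes by TMM (blue circles) and to the spike-in RNAs (orange diamonds). The scaling moves every gene of a panel by nearly the same step, so the genes keep their order while the level of the bulk of genes moves. With spike-ins the median of all genes stands at 0.358 in GFP cells with dBRD9-A and at -0.319 for SMARCB1 under dBRD9-A.

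The 10 genes were also compared by their profiles over the 12 libraries. The distance between profiles was the root mean square difference of log2 CPM after each gene was centred on its own mean. BUB1 and CDC20 were each other's nearest (0.054), PLK1 was nearest to BUB1 (0.06) and TTK to CDC20 (0.055). AURKB and CCNB1 were each other's nearest (0.045), with AURKA (0.057) and CDK1 (0.05) nearest to CCNB1 and BUB1B nearest to CDK1 (0.051). PLK4 had the most distant nearest neighbour, TTK at 0.099, and the farthest pair was PLK1 and BUB1B at 0.256. BUB1 and its relative BUB1B were 0.222 apart. Among the 12503 genes with a mean of at least 50 counts, the genes outside the 10 that were nearest to the median profile of the 10 were H2AZ2 (0.0217), BLMH (0.024), ITCH (0.0245), THOC7 (0.0268) and SIRT1 (0.0268). These distances are descriptions over 12 libraries in 4 groups.

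The relatives PLK2 and PLK3 were set beside PLK1 and PLK4, and AURKC beside the other Aurora kinases. PLK2, a Polo-like kinase known as a stress and p53 response gene, had 2.876, 3.636 and 3.267 CPM in GFP cells in DMSO and 142.3, 144.8 and 142.2 CPM in the matching SMARCB1 libraries. The rise in PLK2 was 5.47 on the log2 scale (SE 0.05, edgeR adjusted p 3.06e-22). PLK3, another stress-linked relative, fell from 13.81, 14.5 and 14.24 CPM to 5.419, 5.369 and 5.66 CPM, a log2 fold change of -1.37 (SE 0.09, edgeR adjusted p 3.7e-10). With SMARCB1 in DMSO, PLK2 (143 CPM) thus stood near PLK1 (132 CPM), where in GFP cells it had been far below it. With dBRD9-A in GFP cells both relatives fell, PLK2 by 0.62 on the log2 scale (SE 0.09, adjusted p 0.000163) and PLK3 by 0.36 (SE 0.08, adjusted p 0.00694), while PLK1 and PLK4 rose. Under spike-in scaling PLK2 stood at -0.27 there (adjusted p 0.0563) and PLK3 at 0.00 (adjusted p 0.972), neither of them called. AURKC, the Aurora kinase of germ cells, had 0.29 to 0.497 CPM in the 12 libraries.

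**Figure D4:**
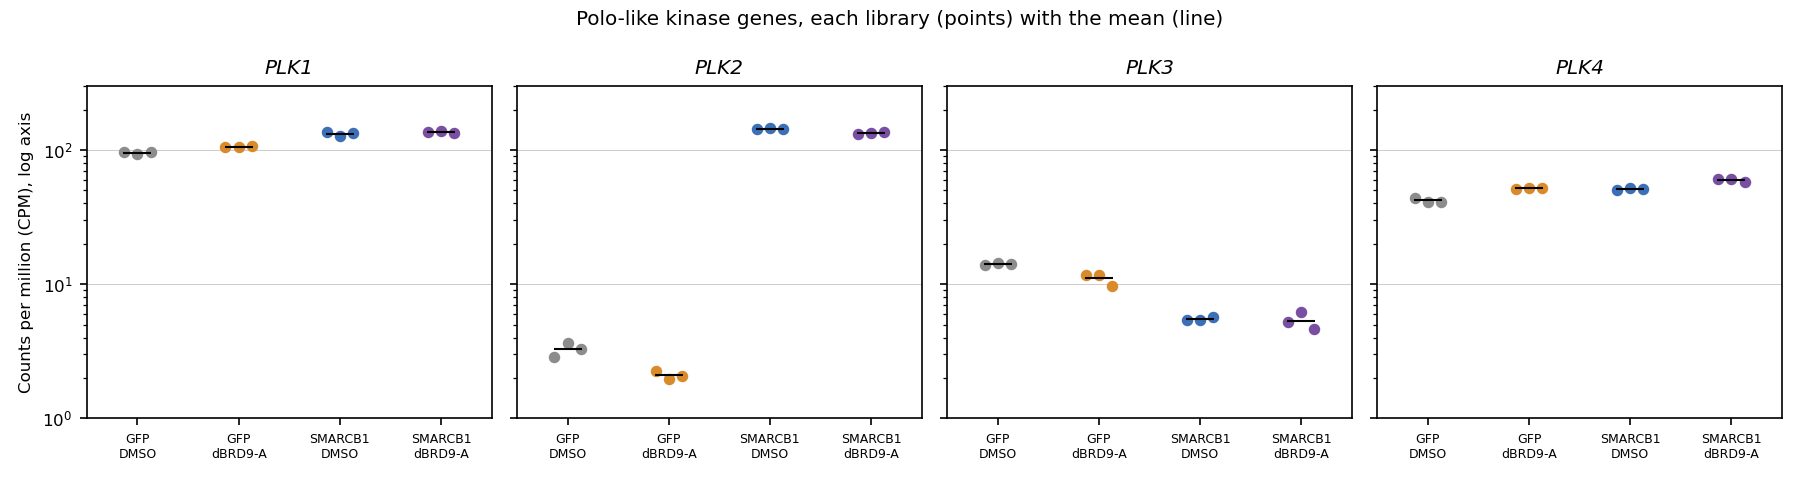
Level of the Polo-like kinase genes PLK1 to PLK4 in CPM (y axis, log scale) in the 4 groups (x axes), with points for single libraries and lines for the mean of 3 replicates. In DMSO, SMARCB1 takes PLK2 from 3.26 to 143 CPM and PLK3 from 14.2 to 5.48 CPM, far larger steps than those of PLK1 (95.5 to 132 CPM) and PLK4 (42.1 to 51.2 CPM).

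The genes that act with the 10 were followed in 9 lists of pathway partners, with 134 of 135 genes tested (UHRF1 was not matched). With SMARCB1 in DMSO, 71 of the 134 were called higher and 26 lower, or 94 and 5 under spike-in scaling. With dBRD9-A in GFP cells the split was 8 higher and 17 lower, and spike-in scaling turned it into 129 and 0. In SMARCB1 cells with dBRD9-A, 1 was higher and 0 lower, against 0 and 8 under spike-in scaling. These counts describe the lists beside the background shares given above, with no test of a list.

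With SMARCB1 in DMSO, the calls among the motors and scaffolds of division were all in one direction. Of 16 mitotic kinesins and cytokinesis factors, 14 were higher and 0 lower (16 and 0 with spike-ins), with a median log2 fold change of 0.19. KIFC1, a kinesin that clusters spindle poles, rose by 0.64 (SE 0.04, edgeR adjusted p 4.98e-10). Of 9 Aurora partners and chromosomal passengers, 8 were higher and 0 lower, with a median of 0.22. AJUBA, a LIM protein that activates Aurora A, had the largest rise among these 9, 1.15 on the log2 scale (SE 0.05, adjusted p 7.56e-13), from 40.8 ± 2.62 to 90.7 ± 3.65 CPM (SD over 3 replicates). These lists thus moved in the same direction as AURKA, PLK1 and BUB1.

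The 20 checkpoint and kinetochore partners split into 10 higher, 3 lower and 7 not called (spike-in scaling gave 15 and 0). SPC25, a subunit of the NDC80 complex that binds microtubules, rose by 1.01 (SE 0.06, edgeR adjusted p 1.51e-10), from 6.39 to 12.9 CPM. TRIP13, an ATPase that takes the checkpoint complex apart, fell by 0.15 (SE 0.03, adjusted p 0.000285), and stood at 0.02 under spike-in scaling. The 20 genes of the anaphase-promoting complex and its regulators divided into 9 higher and 6 lower (12 and 1 with spike-ins), around a median of 0.00. FZR1, which encodes CDH1, the activator that replaces CDC20 after mitosis, rose by 0.65 (SE 0.04, adjusted p 6.14e-10), and ANAPC10, a subunit that helps to bind substrates, fell by 0.37 (SE 0.06, adjusted p 1.27e-05).

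Of the 12 CDK1 partners and regulators, 5 were higher and 4 lower with SMARCB1 in DMSO (7 and 1 with spike-ins). CDC25C, the phosphatase that activates CDK1, rose by 0.54 (SE 0.05, edgeR adjusted p 1.83e-08). CKS2, a small protein that binds CDK1, had 336.9, 333.9 and 352.3 CPM with GFP and 196.0, 189.7 and 191.2 CPM with SMARCB1, a fall of 0.83 on the log2 scale (SE 0.03, adjusted p 1.49e-13), the opposite direction to most mitotic genes here. Of the 8 centriole duplication factors, 4 were higher and 1 lower (6 and 0 with spike-ins). STIL, the partner that PLK4 phosphorylates to start a new centriole, rose by 0.54 (SE 0.04, adjusted p 2.21e-09), and CEP63 fell by 0.29 (SE 0.05, adjusted p 9.16e-05). PLK4 and STIL thus both rose with SMARCB1.

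The 12 other mitotic kinases, PLK2 and PLK3 among them, had 7 higher and 2 lower with SMARCB1 in DMSO (8 and 1 with spike-ins). The 16 MuvB, B-MYB and FOXM1 regulators of mitotic genes were evenly split, with 5 higher and 5 lower (8 and 2 with spike-ins) around a median of -0.01. MYBL2, which encodes B-MYB, rose by 0.48 (SE 0.03, edgeR adjusted p 8.39e-11), and E2F5, of the repressive E2F group, fell by 0.52 (SE 0.03, adjusted p 2.94e-11). Of 21 S phase genes, 9 were higher and 5 lower (13 and 0 with spike-ins), with a median of 0.02. CCNE2, a cyclin of the entry into S phase, rose by 0.64 (SE 0.05, adjusted p 1.46e-09), and RPA2, a subunit of the protein that coats single-stranded DNA, fell by 0.26 (SE 0.04, adjusted p 6.17e-06). The summed level of these S phase genes was 2090 ± 21 CPM in untreated and 2040 ± 21 CPM in treated GFP cells, and 2140 ± 16.1 CPM in untreated and 2130 ± 11.1 CPM in treated SMARCB1 cells (SD, n = 3). The part of the cell cycle distribution in the rises of PLK1, BUB1 and CDC20 was not tested.

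**Figure D5:**
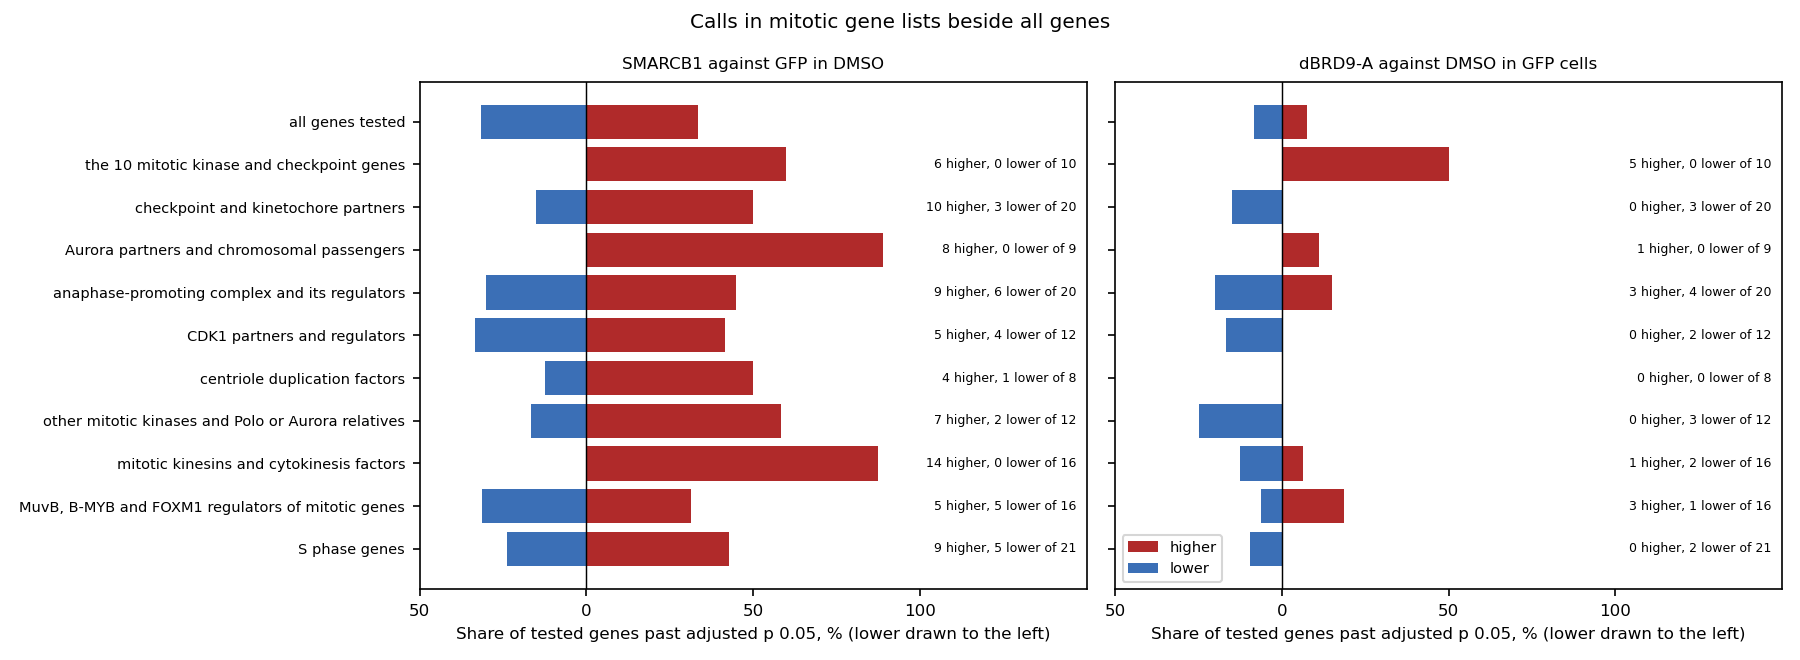
Share of tested genes called higher (red, to the right) and lower (blue, to the left), in percent, for all genes, the 10 mitotic kinase and checkpoint genes and the 9 lists (rows), for SMARCB1 against GFP in DMSO (left panel) and dBRD9-A against DMSO in GFP cells (right panel), scaled to all genes. On the left, 14 of 16 mitotic kinesins and cytokinesis factors are higher beside 33.5% of all genes. On the right, 5 of the 10 members are higher beside 7.43% of all genes, and 8 of 134 listed partners.

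Of the 134 partners, 25 (18.7%) were called with dBRD9-A in GFP cells, near the 15.9% of all genes. Among the checkpoint and kinetochore partners 0 were higher and 3 lower (20 and 0 with spike-ins), with the largest fall at MIS12, a kinetochore subunit (-0.19, SE 0.05, edgeR adjusted p 0.0112), which turned to 0.17 under spike-in scaling. The anaphase-promoting complex had 3 higher and 4 lower (20 and 0 with spike-ins), with ANAPC11, its RING subunit, at 0.29 (SE 0.05, adjusted p 0.000192) and ANAPC13 at -0.16 (SE 0.05, adjusted p 0.0297), turned to 0.20 under spike-in scaling. SGO2, which protects centromeric cohesion, rose by 0.19 (SE 0.04, adjusted p 0.00367). CDC25B, an activator of CDK1, fell by 0.23 (SE 0.04, adjusted p 0.000416), turned to 0.13 under spike-in scaling. CEP55, a factor of the final cut between daughter cells, fell by 0.16 (SE 0.02, adjusted p 0.000213), turned to 0.20 under spike-in scaling. Among the kinesins and cytokinesis factors KIFC1 rose by 0.16 (SE 0.05, adjusted p 0.0219). Directions of the falls in this comparison hold relative to the bulk of genes only, since spike-in scaling left 0 of the 134 called lower. In SMARCB1 cells the single call was NFYC, a subunit of the NF-Y factor that binds CCAAT boxes, which rose by 0.21 (SE 0.04, adjusted p 0.00966) and stood at 0.07 under spike-in scaling (adjusted p 0.453). NFYC was also higher in GFP cells with dBRD9-A, by 0.13 (SE 0.04, adjusted p 0.038).

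Under dBRD9-A, SMARCB1 cells had 71 of the 134 partners higher and 21 lower than GFP cells, and spike-in scaling turned this into 8 higher and 87 lower. Partners that stayed higher under both scalings included AJUBA at 1.20 (SE 0.05, edgeR adjusted p 6.24e-13) and 0.87 with spike-ins, SPC25 at 0.81 (SE 0.07, adjusted p 5.24e-09) and 0.49, and CCNE2 at 0.75 (SE 0.05, adjusted p 3.24e-10) and 0.43. KIF18A, a kinesin that limits the length of kinetochore fibres, stood at 0.55 (SE 0.03, adjusted p 1.07e-11) and 0.22. STIL, the partner of PLK4, was 0.45 (SE 0.04, adjusted p 3.5e-08), but 0.12 and not called with spike-ins (adjusted p 0.135). CKS2 was lower under both, at -0.91 (SE 0.03, adjusted p 4.51e-14) and -1.23. Of the partners named here, ANAPC10, ANAPC11, ANAPC13, CCNE2, CDC25C, CEP63, E2F5, FZR1, KIF18A, MIS12, SGO2 and TRIP13 overlap on the opposite strand a gene with many counts in GENCODE 29, for TRIP13 the gene BRD9. Whether the counting used strand is not given in the sources used here, so their values are less certain than those of the 10 genes.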

How the data were processed

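RNA sequencing of 12 G401 libraries (4 groups of 3) was analysed from the authors' deposited tables of expected counts per gene. RNeasy Plus purification and TruSeq Stranded mRNA libraries were used, per the labels' protocols. The submitters' processing notes name STAR, RSEM 1.3.1, DESeq2 and GRCh37 (hg19). The annotation and the use of strand are not given in the sources used here. RSEM shares reads that map to several genes, so 2.572% of the deposited expected counts were not whole, and they were rounded. Columns of libraries in more than 1 table were identical (6 of 6). Symbols were matched by unversioned identifier for 51996 of 57820 identifiers. The 40 spike-in identifiers, 0.9634% to 1.302% of a library, were left out of library sizes.

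Genes passing filterByExpr (minimum count 10) were kept, 15750 in all. Tests used edgeR 4.0.16 (R 4.3.3): TMM scaling (factors 0.9765 to 1.016), quasi-likelihood fits over the 12 libraries with group as the only factor, and Benjamini-Hochberg adjustment over all genes, with adjusted p under 0.05 called. The fit was tested on simulated counts in which 200 genes were changed, up and down alike, in the GFP dBRD9-A group only. With so few and balanced changes it cannot test the choice of scaling. Libraries held 34.9743 to 58.5361 megacounts (1 megacount is 1e6 counts), and no replicate pair agreed within sampling noise (chi-square per degree of freedom 2.888 to 23.76, the highest for SMARCB1 dBRD9-A replicates 2 and 3). CPM values are on TMM-scaled sizes. Alternatives were DESeq2 1.42.0 (size factors, Wald test), spike-in scaling, no filter, a replicate block, 2-group fits, a log2 limit of 1 and leaving out each library.

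The 10 genes and the lists of partners were chosen with earlier results of these data known. Named were all 10 genes and, per list and comparison, the largest rise and fall past the threshold with a mean of at least 50 counts and no overlap of replicates, a selection of which is printed. PLK3 with dBRD9-A in GFP cells, and AURKC, were named after their values were seen. Promoters come from RefSeq (GRCh38.p14) and lengths and overlaps from GENCODE 29, which may differ from the authors' annotation.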

Additional observations from a re-analysis of the deposited data

Results flagged for a closer look

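None of the 10 mitotic kinase and checkpoint genes was singled out by the checks for results that differ between groups, but 4 of their 134 tested partners were. Their change with dBRD9-A differed between SMARCB1 and GFP cells in edgeR's test of the interaction (adjusted p under 0.05, over all genes). That is 2.99% of the partners, beside 3.80% of all genes, so the count does not set the partners apart from the background. PLK2, the Polo-like kinase that SMARCB1 raised, fell with dBRD9-A in GFP cells, from 2.876, 3.636 and 3.267 to 2.245, 1.975 and 2.062 CPM (-0.62 on the log2 scale). In SMARCB1 cells its change was -0.09. The difference for PLK2 was 0.53 (edgeR adjusted p 0.00446), and the call held in each of the 12 fits with 1 library removed. Under spike-in scaling the difference for PLK2 was 0.03 (adjusted p 0.843).

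CDC25B, which activates CDK1, had 41.6 ± 0.528 CPM in DMSO and 35.5 ± 0.457 CPM with dBRD9-A in GFP cells (SD, n = 3), against 36.9 ± 0.889 and 36.5 ± 1.69 CPM in SMARCB1 cells (SD, n = 3). Its difference was 0.21 (edgeR adjusted p 0.0328). CEP55 had 104 ± 1.0 and 93.8 ± 0.414 CPM in GFP cells and 115 ± 0.756 and 113 ± 0.897 CPM in SMARCB1 cells (SD, n = 3), a difference of 0.13 (adjusted p 0.0377 in edgeR). NEK6, a kinase of the NIMA family, had 58.3 ± 1.91 and 53.2 ± 1.36 CPM in GFP cells and 74.4 ± 1.06 and 76.6 ± 2.1 CPM in SMARCB1 cells (SD, n = 3), a difference of 0.17 (adjusted p 0.0473 in edgeR). Under spike-in scaling these 3 differences turned to -0.28 for CDC25B, -0.37 for CEP55 and -0.32 for NEK6. The calls of these 3 genes also lay near the threshold, and most fits without 1 library lost them. In such fits the differences were 0.18 to 0.24 for CDC25B, 0.15 to 0.20 for NEK6 and 0.12 to 0.13 for CEP55. CDC25B kept its call in 3 of 12 fits with 1 library removed (adjusted p up to 0.0994), NEK6 in 2 (up to 0.158) and CEP55 in 0 (up to 0.105).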

How the results depend on the processing

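PLK1, PLK4, BUB1, TTK and CDC20 with SMARCB1, and PLK4 and PLK1 with dBRD9-A in GFP cells, kept direction and call in each fit that left out 1 library. Over the 10 genes and 5 comparisons, 812 values kept direction and side of the threshold. With the direction kept, 33 lost the call and 20 gained one. A further 25 changed sign, and some of these also lost or gained a call. A limit of 1 on the absolute log2 fold change left 0 of the 10 called in each comparison, and of the 134 partners 4 (97 without it) with SMARCB1 in DMSO, 3 (92) under dBRD9-A, 0 (25) with dBRD9-A in GFP cells, 0 (1) in SMARCB1 cells and 0 (4) for the interaction.

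Spike-in scaling gave 10 of the 10 with dBRD9-A in GFP cells, 0 in SMARCB1 cells and 10 for the interaction, and 129, 8 and 129 partners. The shares of all genes called under that scaling were 71.8%, 5.54% and 71.6%. It changed the sign of BUB1B (0.11) and CDK1 (0.12) with SMARCB1 in DMSO, of AURKA (-0.25), PLK4 (-0.12), TTK (-0.08) and CDC20 (-0.05) under dBRD9-A, of BUB1B (0.35) and CDK1 (0.33) with dBRD9-A in GFP cells, of PLK1 (-0.09), TTK (-0.06) and CDC20 (-0.11) in SMARCB1 cells, and of CDK1 (-0.49) in the interaction. Spike-ins made up 1.2649% to 1.302% of the GFP DMSO libraries and 0.9634% to 1.0604% of the GFP dBRD9-A libraries. In SMARCB1 cells they made up 1.0848% to 1.2103% with DMSO and 1.1775% to 1.2954% with dBRD9-A. The cause of these differences in share, which set the spike-in scaling, was not tested.

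The partners called with dBRD9-A in SMARCB1 cells numbered 2 with DESeq2 size factors, 2 with the DESeq2 Wald test, 5 without a filter and 0 with 2 groups fitted. The interaction of CDK1 was 0.00 with DESeq2 size factors and in the DESeq2 Wald test, below zero before rounding, and 2 partners were called with those size factors. Replicates with the same number did not deviate together over all genes (correlations -0.056 to 0.061), and the main fit held no pairing. A correlation over all genes cannot exclude a pairing that affects few of them. With a replicate block 6, 4, 1, 6 and 0 of the 10 were called with SMARCB1 in DMSO, dBRD9-A in GFP cells, dBRD9-A in SMARCB1 cells, SMARCB1 under dBRD9-A and the interaction. CDC20 (adjusted p 0.0523) in GFP cells and BUB1B (0.0546) under dBRD9-A lost the call, and 1 partner was called for the interaction.

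Leaving out 1 library gave, in the same order, 6 to 7, 2 to 5, 1 to 1, 5 to 7 and 0 to 0 of the 10, and 89 to 99, 13 to 31, 0 to 3, 87 to 92 and 1 to 8 partners. The lowest of 13 came without GFP dBRD9-A replicate 1, with 14 without GFP DMSO replicate 1 or 3 and 16 without GFP dBRD9-A replicate 2. The single call in SMARCB1 cells was lost without SMARCB1 DMSO replicate 3 and became 3 without SMARCB1 dBRD9-A replicate 2, which also gave the 8 of the interaction. Values near 0 changed sign in such fits: BUB1B (-0.02 to 0.01) in GFP cells, AURKB (-0.03 to 0.00) and CDK1 (-0.06 to 0.01) in SMARCB1 cells, CCNB1 (-0.04 to 0.02) under dBRD9-A and CDK1 (-0.03 to 0.04) in the interaction. Protein levels and cell cycle phase were not measured, and 24 hours was the single time.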
